A study of Rattus norvegicus with 4 samples.

Results

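The nuclear genes of oxidative phosphorylation were followed in the prefrontal cortex of neonatal rats after prenatal exposure to bisphenol A (BPA), a chemical used to make plastics. Genes were taken by symbol among the rows with a numeric NCBI GeneID (Nduf genes of the A, B, C, S and V series, Sdha to Sdhd, Uqcr genes, Cyc1, nuclear Cox4 to Cox7 genes, Cox8a and Atp5 genes), with no expression value in the rule. The rule found 85 genes of the 14008 genes with such an identifier. By name, 36 belonged to complex I, 4 to complex II, 9 to complex III, 13 to complex IV and 17 to complex V. The remaining 6 were Ndufaf genes, which encode assembly factors of complex I and no subunit. Atp5s and Atp5sl, counted here with complex V by name, are also not subunits of the ATP synthase. Ndufa4, counted with complex I by name, is now known as a subunit of complex IV. Ndufs6 (GeneID 29478), also counted with complex I, carries the symbol of a pseudogene, Ndufs6-ps1, in the current RefSeq gene table.

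Dams, Wistar in the labels and Wistar Furth in the methods of the study, received 5000 µg/kg of maternal body weight BPA, or the vehicle alone, each day from gestational day 1 until they gave birth, and cortex of their pups was taken on postnatal day 1 according to the labels. Each sex and treatment had 1 library, 4 in all (control male and control female, BPA male and BPA female), without a transgene or other treatment in any of them. Where a pair of values is given for a sex, the control library comes first and the BPA library second. The methods name 3 pups per sex and treatment, from independent litters, for the transcriptome and PCR work together, and whether a library pooled them is not stated in the sources used here. Within a sex, 1 library therefore stood against 1, which compares those libraries and not the conditions and has no replicate check.

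Oxidative phosphorylation transfers electrons from nutrients to oxygen along the inner mitochondrial membrane and uses the released energy to make ATP. Complex I takes electrons from NADH and complex II from succinate, both pass them to ubiquinone, complex III passes them on to cytochrome c, and complex IV hands them to oxygen. Complexes I, III and IV pump protons, and complex V, the ATP synthase, lets the protons back through a rotating ring of subunit c. Apart from complex II, each complex joins nuclear subunits with subunits encoded in the mitochondrial genome, which were not analysed here. In the neonatal cortex the system expands as neurons grow and begin to fire, because restoring ion gradients after activity costs much ATP.

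The libraries held between 8952250 and 9249250 fragments, estimated from the deposited values. Of the 85 genes, 84 were listed in all 4 libraries, and 83 of these had a mean of at least 1 FPKM (fragments per kilobase of transcript, scaled for the depth of the library, so that levels of different genes can be compared) and were tested. Each tested gene rested on 12 to 10758 estimated fragments in a library, with a median of 640. The median standard error from counting was 0.0776 for a log2 ratio in the male pair and 0.0803 in the female pair, where a log2 ratio of 0.25 is a level 18.9% higher. Reads of many of these genes may be shared with copies, since 42 of the 85 genes have a named copy and 39 a named pseudogene in the RefSeq gene table. Levels of single genes are uncertain to that extent.

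Marker levels of several cell types and neighbouring regions differed between the libraries, and some of them moved with treatment. Markers of cortical neurons were present throughout, and their sum was 3220 and 3569 FPKM in males and 3105 and 3391 in females. The members did not move together. Slc17a7, a vesicular glutamate transporter, measured 51.08 and 30 FPKM in males and 56.97 and 32.17 in females (lower with BPA, limma adjusted p = 0.0274), and Neurod2, a transcription factor of cortical neurons, 45.76 and 61.95, then 45.38 and 67.45 (higher, adjusted p = 0.0481). All 7 markers of meninges and vessel wall were lower with BPA, summing to 234.9 and 270.4 FPKM in the controls and 94.95 and 72.54 in the BPA libraries. The sum of 5 striatal markers was 43.7 and 48.9 in the controls and 77.95 and 85.63 with BPA, and that of 3 olfactory bulb markers 43.22 and 45.64 against 11.46 and 9.81, almost all of it Cdhr1. Astrocyte markers summed to 668.5 and 661.8 against 566.1 and 486.8, and oligodendrocyte markers to 95.8 and 105.3 against 82.72 and 86.63. Blood markers, mostly hemoglobins, summed to 1604 and 1499 FPKM in the controls and 1529 and 1248 with BPA. Mast cell markers were scarce, at 4.25 and 4.2 FPKM in the controls and 1.82 and 0.69 with BPA. This difference was mostly Cpa3, a mast cell protease (limma adjusted p = 0.0466), whereas Tpsb2 measured 1.04 and 1.15 FPKM in males and 0.64 and 0.21 in females, and Mcpt1 was at 0.12 FPKM or less where listed. Markers of choroid plexus (0.67 to 1.91 FPKM) and muscle (5.57 to 7.12) were low in all. The part of these differences in the ratios of oxidative phosphorylation genes was not tested, and in whole tissue fewer cells of a type and less RNA per cell cannot be told apart.

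Together the genes took a near-constant share of the transcriptome. Summed over the 84 genes listed throughout, the level was 10848 and 10562 FPKM in males and 10323 and 9984.4 in females. These sums were 2.49% and 2.38% of all FPKM in males and 2.42% and 2.34% in females. The sum was 2.6% lower in BPA male than in control male and 3.3% lower in BPA female than in control female. It was also 4.8% lower in control female than in control male and 5.5% lower in BPA female than in BPA male. The order of these differences depended on the scale, since as shares of all FPKM the values lay further apart between the treatments than between the sexes.

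The highest levels belonged to the catalytic head of the ATP synthase and to complex IV. Atp5b (GeneID 171374), the catalytic beta subunit, had the highest mean of the 85 genes, 653.8 FPKM, followed by Atp5a1, the alpha subunit, at 386.7. Then came 3 subunits of complex IV, Cox6a1 at 355.6, Cox4i1 at 333.1 and Cox7a2 at 293. The lowest means belonged to an isoform of other tissues and a paralogue. Cox6a2 (GeneID 25278), the heart and muscle isoform, was listed at 1 and 0.5 FPKM in males and at 0.01 and 1.02 in females, which corresponds to 4 or fewer fragments, and it was left out of the tests. Ndufa10l1, a paralogue of Ndufa10, was listed only for the males, at 3.05 FPKM (39 estimated fragments) in control male and at the lowest value of 0.01 in BPA male, and it too was not tested.

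**Figure D1:**
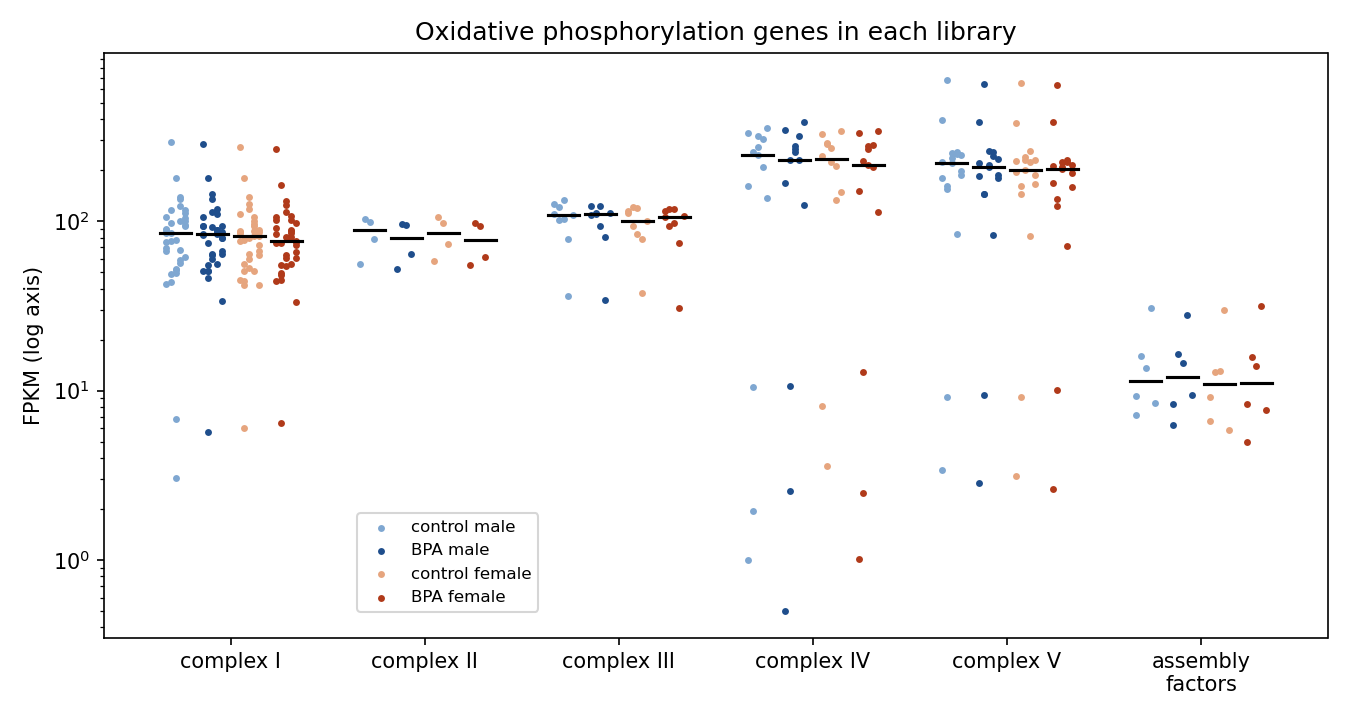
FPKM of each oxidative phosphorylation gene (points, log axis) in the 4 libraries, by complex, with the median of each group as a black line; values at 0.01 are not drawn. The 4 libraries overlap in every complex, and the 6 assembly factors, at 4.99 to 31.74 FPKM, sit below most subunits.

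BPA against control was tested first with both sexes of a treatment taken as its 2 samples. The methods name 6 litters over both treatments and both sexes, so the male and the female library of a treatment may hold pups of the same dams, while the test takes them as independent. With limma, 0 of the 83 tested genes passed an adjusted p of 0.05, against 0.562% of all 13163 transcripts. At an unadjusted p under 0.05, limma marked 9 of the 83 genes (10.8%), 8 of them lower and 1 higher, against 17.3% of all transcripts (12% lower and 5.31% higher). The share among these genes was below the background in each direction. The 9 genes, in order of p, were Ndufs1, Sdhd, Ndufc2, Ndufb6, Atp5j2, Atp5g1, Cox7a2l, Ndufa1 and Ndufb10, and Ndufa1 was the one with higher values. Adjusted p ranged from 0.0858 for Ndufs1 to 0.28 for Ndufb10 in limma.

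Small differences prevailed in each pair. In the male pair, 7 of the 83 genes (8.43%) differed by 0.25 or more on the log2 scale, 1 higher and 6 lower with BPA, against 33.1% of all transcripts (11.8% higher and 21.3% lower). In the female pair, 13 genes (15.7%) did, 5 higher and 8 lower, against 34.3% (10.3% higher and 24% lower). After each library was scaled to the median of all transcripts, the split was 2 higher and 1 lower in the male pair and 6 higher and 4 lower in the female pair. The 95% counting interval of the ratio excluded 0 for 16 of the 83 genes in males (12 lower, 4 higher) against 35.5% of all transcripts, and for 20 in females (16 lower, 4 higher) against 36.3%. No gene reached an absolute log2 ratio of 1, which 3.07% of all transcripts did in the male pair and 4.09% in the female pair. Most of the genes were abundant, so they were also set beside known genes of like level. Among those with a mean of at least 30 FPKM, 6 of 73 (8.22%) passed 0.25 in the male pair and 8 of 73 (11%) in the female pair, beside 11% and 9.94% of 2666 known genes. The shares past 0.25 were therefore close to those of other genes of that level.

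The direction of the small differences was mostly downward in the BPA libraries, as it was for all transcripts but not for known genes of like level. In the male pair, 52 of the 83 genes (62.7%) were lower with BPA, against 56.1% of all transcripts, and in the female pair 53 (63.9%) against 57.8%. The median log2 ratio was -0.044 in males and -0.045 in females, beside -0.038 and -0.043 over all transcripts. Once the medians of all transcripts were set to 0, 42 of the 83 genes (50.6%) were lower in each pair. Known genes of at least 30 FPKM had medians of -0.002 and 0.015, and 50.4% and 45.2% of them were lower, while 48 (65.8%) and 49 (67.1%) of the 73 genes of that level were. Among those with transcripts of at most 1500 bases, 371 and 391 of 799 known genes and 40 and 41 of the 62 oxidative phosphorylation genes were lower. The downward lean was thus larger than among known genes of like level, a difference that was not tested. Setting the median of all transcripts to 0, as below for each complex, takes scarcer genes as the reference. All transcripts had a median level of 10.38 FPKM, beside 94.47 for the 83 genes. Spread, by contrast, was narrow. The SD of the log2 ratios over the 73 genes was 0.116 in males and 0.127 in females, beside 0.178 and 0.185 over the known genes of that level.

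Both BPA libraries lay below both control libraries for 29 of the 83 genes (34.9%), against 31.9% of all transcripts. They lay above both for 6 genes (7.23%), against 18.7%. These 6 genes were Ndufa1, Ndufab1, Ndufb2, Cox6b2, Atp5sl and Ndufaf4. A log2 difference of 0.25 or more in the same direction in both pairs was found for 2 genes (2.41%), Ndufs1 and Sdhd, both lower, against 14.8% of all transcripts.

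**Figure D2:**
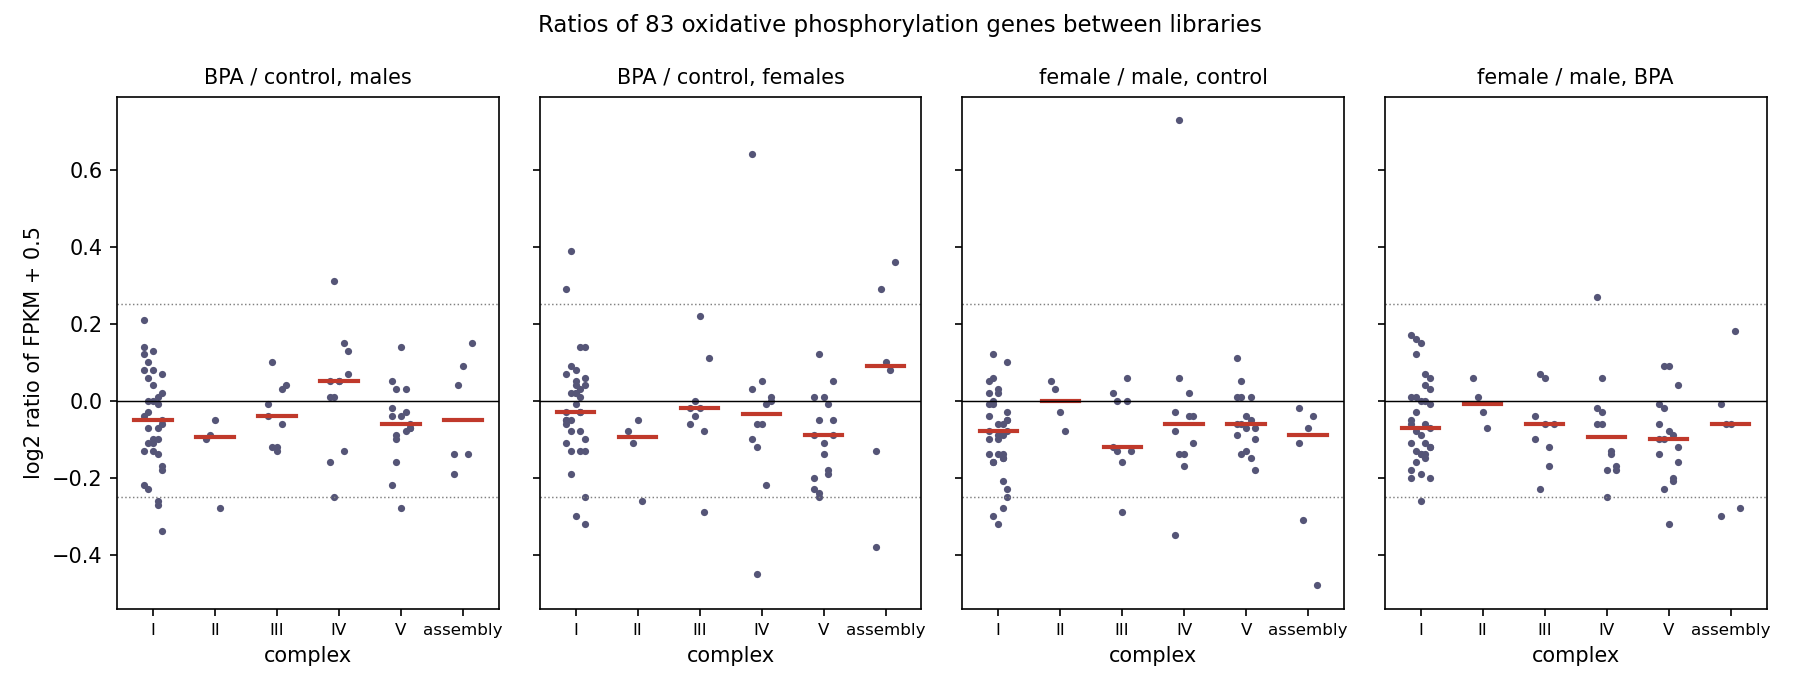
Log2 ratio of FPKM + 0.5 for the 83 tested genes (points) by complex, in BPA against control for males and females and in female against male for control and BPA; red lines are medians and dotted lines mark 0.25 in either direction. The 4 subunits of complex II are below 0 in both treatment comparisons, and the female libraries lie mostly below the male ones within a treatment.

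Complex I, the NADH dehydrogenase, had its lowest ratios in Ndufs1 (GeneID 301458), which carries iron-sulfur clusters of the arm that oxidizes NADH. Its level was 42.72 and 33.64 FPKM in males and 41.75 and 33.31 in females. The 95% counting intervals were 40.1 to 45.5 and 31.3 to 36.1 FPKM in males, and 39.1 to 44.5 and 30.9 to 35.8 in females. The BPA and control libraries did not overlap, and the 2 libraries of a treatment lay within each other's intervals. Ndufs1 was 21.3% lower in BPA male and 20.2% lower in BPA female, with log2 ratios of -0.34 and -0.32, the lowest of the 83 genes in males and the third lowest in females. In limma its log2 difference was -0.33 (SE 0.0613), with an adjusted p of 0.0858. The call turned when fewer rows were tested, with limma's adjusted p at 0.038 for transcripts of at least 10 FPKM, of which 3.07% passed, and at 0.029 for known genes alone, of which 4.49% passed. RefSeq places its start on chromosome 9, and the bases before that start are shown because Ndufs1 had the lowest p of the 83 genes. The capitals mark a match to the YY1 motif described further on, here as its reverse complement, and the coordinates and strand are those of the assembly GRCr8.
Ndufs1, chr9:72073606-72073755, minus strand: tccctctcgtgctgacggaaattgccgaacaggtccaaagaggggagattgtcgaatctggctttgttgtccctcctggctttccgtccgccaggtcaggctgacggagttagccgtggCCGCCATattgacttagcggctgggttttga

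Other core subunits of complex I were measured beside Ndufs1. Ndufv1, which binds NADH and the flavin, measured 67.69 and 63.28 FPKM in males and 63.63 and 63.14 in females. Its partner Ndufv2 measured 117.12 and 118.07 in males and 106.01 and 106.75 in females. In neither gene did the counting interval of BPA against control exclude 0 in either sex. Ndufv2 was lower in females than in males within each treatment, and both of those intervals excluded 0. In the arm that leads to ubiquinone, Ndufs8, another iron-sulfur subunit, differed by -0.11 and 0.02 on the log2 scale in the male and the female pair. Ndufs7, which holds the last iron-sulfur cluster before ubiquinone, had the second highest ratio in males, 0.21, and -0.03 in females.

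Ndufs3 (GeneID 295923), a core subunit of the same arm, differed between the sexes. It measured 51.88 and 50.72 FPKM in males, but 42.19 and 55.34 in females. The control female library was the low one of the 4, and the other 3 lay close together. The male log2 ratio was -0.03 and the female one 0.39, a difference of -0.42 that passed a test on counting error alone (normal approximation, adjusted p = 0.0243 over 12974 transcripts). Only 2 of the 83 genes (2.41%) passed this test, against 9.73% of all transcripts, and the test does not hold the variation between pups.

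The accessory subunits surround the core and stabilize it. The 11 tested Ndufa subunits lay between -0.22 and 0.13 in males and between -0.13 and 0.29 in females, and the 10 Ndufb subunits, in the membrane arm, lay between -0.27 and 0.14 in males and between -0.30 and 0.14 in females, with medians of 0.009 and -0.061. Ndufb4 (GeneID 288088) had the fourth lowest female ratio of the 83 genes, -0.30 with a counting interval from -0.49 to -0.11. It measured 135.9 and 135.72 FPKM in males and 138.75 and 112.96 in females, so BPA female stood apart from the other 3 libraries (limma adjusted p = 0.444). Ndufa1 (GeneID 363441), a small membrane-arm subunit, measured 88.2 and 93.33 FPKM in males and 85.62 and 105.08 in females. Both BPA libraries were above both controls, and the counting interval of the ratio excluded 0 in females (0.07 to 0.52) but not in males (-0.15 to 0.31). Ndufb6 was lower with BPA in each sex, at 89.56 and 79.08 FPKM in males and 86.7 and 72.7 in females. Ndufc2 behaved alike, at 100.15 and 83.71 in males and 96.34 and 87.72 in females, and Ndufb10 measured 103.83 and 86.22, then 93.72 and 88.87. For each of these 3 genes both BPA libraries were below both controls. The difference between their male and female ratios did not pass the test on counting error (adjusted p of 0.409 or more). Over complex I, 10 of 35 tested genes (28.6%) lay below both controls and 3 (8.57%) above, against 31.9% and 18.7% of all transcripts.

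Ndufb8 (GeneID 293991), often used as a protein marker of assembled complex I, measured 179.53 and 179.19 FPKM in males and 179.16 and 163.5 in females. Ndufab1, which also serves as the mitochondrial acyl carrier protein, measured 58.64 and 64.3 in males and 59.41 and 60.24 in females. Ndufa4 was the most abundant gene named for complex I, at 294.3 and 286.73 FPKM in males and 274.36 and 265.84 in females. Its paralogue Ndufa4l2 reached 2.3% and 1.98% of that level in males and 2.19% and 2.41% in females. Over the 35 tested genes of complex I the median log2 ratio was -0.048 in males and -0.030 in females. In males 23 genes (65.7%) were lower and in females 19 (54.3%), against 56.1% and 57.8% of all transcripts. The summed FPKM differed by -3.1% and -1.9%. With the median of all transcripts set to 0, the female median turned to 0.013, while the male median stayed below 0, at -0.010.

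Complex II, succinate dehydrogenase, is the smallest complex, belongs also to the citric acid cycle and is built from nuclear genes alone. All 4 of its genes had both BPA libraries below both controls, and the sum of their FPKM was 335.72 and 308.3 in males and 333.94 and 306.63 in females. That sum was 8.2% lower in each sex. Between the sexes it differed by -0.53% in control and by -0.54% in BPA, so the 2 libraries of a treatment were close together. All 8 ratios stayed below 0 when the median of all transcripts was set to 0, with complex medians of -0.058 in males and -0.056 in females in place of -0.096 and -0.099. An exact permutation test of 2 libraries against 2 cannot give a two-sided p below 0.333, and no other test of these sums was run. The 4 genes are too few to set their share beside the 31.9% of all transcripts that lay lower in both BPA libraries.

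Within complex II the size of the difference was uneven. Sdhd (GeneID 363061), one of the 2 membrane anchors, measured 78.16 and 64.37 FPKM in males and 73.75 and 61.35 in females. It was 17.6% lower in males and 16.8% lower in females, and counting intervals of both ratios excluded 0 (-0.43 to -0.13 and -0.42 to -0.11). In limma its log2 difference was -0.27 (SE 0.0629, adjusted p = 0.131). Sdha (GeneID 157074), the flavoprotein that oxidizes succinate, measured 56.12 and 52.4 FPKM in males and 58.01 and 54.76 in females. Sdhb (GeneID 298596), the iron-sulfur protein, measured 102.73 and 96.18 FPKM in males and 105.2 and 97.13 in females. Sdhc (GeneID 289217), the other anchor, measured 98.71 and 95.35 FPKM in males and 96.98 and 93.39 in females. These 3 genes were 3.4% to 7.67% lower with BPA, and the counting interval of each of their ratios held 0. The smallest limma p among them was 0.1 unadjusted, for Sdhb, with an adjusted p of 0.369.

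**Figure D3:**
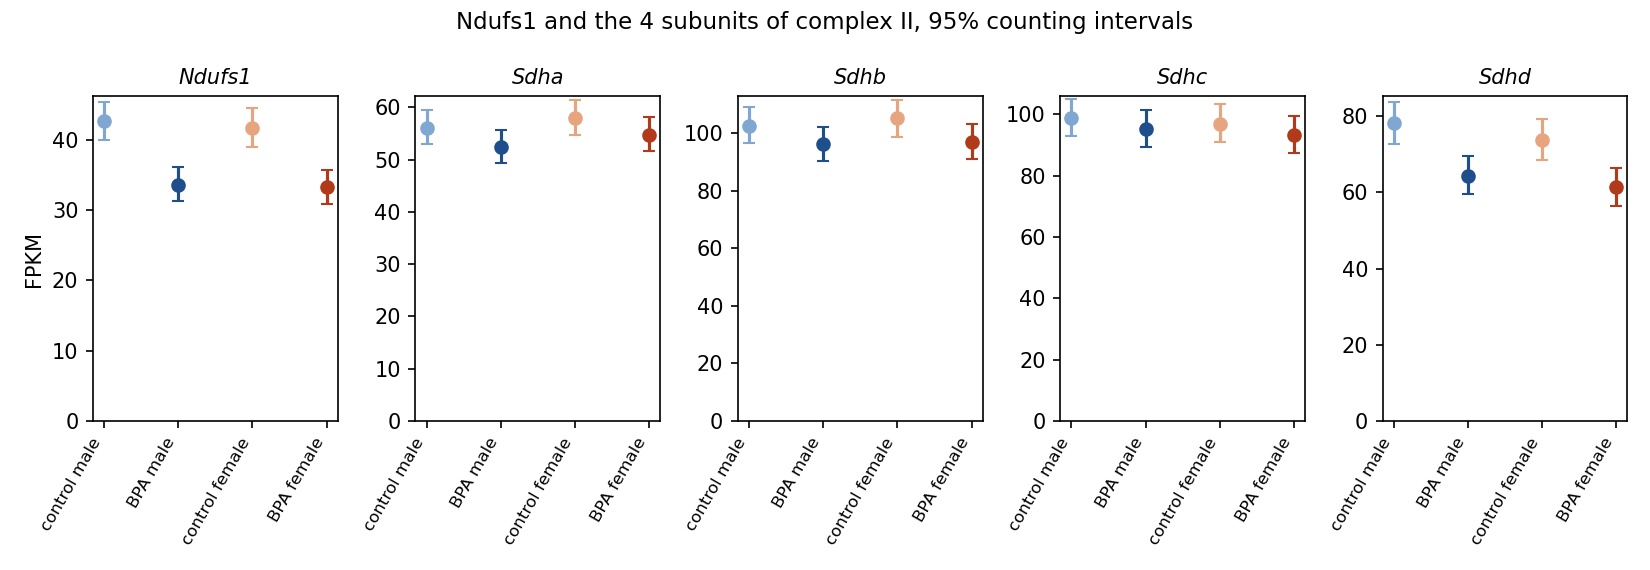
FPKM (axes from 0) of Ndufs1 and the 4 subunits of complex II in each library, with 95% counting intervals from estimated fragments. The intervals of BPA and control libraries of a sex are apart for Ndufs1 and Sdhd and overlap for Sdha, Sdhb and Sdhc.

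The bases before the starts of the 4 genes are shown because they are the one complex with all genes lower in both BPA libraries. The stretches are 150 bases each, from RefSeq on GRCr8, written 5′ to 3′ in the direction of the gene and ending at the base before the start. Capitals mark matches to 4 motifs that lie wholly inside the stretch.
Sdha, chr1:30764403-30764552, plus strand: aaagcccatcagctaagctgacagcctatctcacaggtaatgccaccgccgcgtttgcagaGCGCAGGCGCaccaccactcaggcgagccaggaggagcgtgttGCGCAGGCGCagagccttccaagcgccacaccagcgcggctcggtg
Sdhb, chr5:158547784-158547933, plus strand: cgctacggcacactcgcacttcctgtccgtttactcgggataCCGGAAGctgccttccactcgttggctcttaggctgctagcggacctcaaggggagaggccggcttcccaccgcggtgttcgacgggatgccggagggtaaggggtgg
Sdhc, chr13:86098026-86098175, minus strand: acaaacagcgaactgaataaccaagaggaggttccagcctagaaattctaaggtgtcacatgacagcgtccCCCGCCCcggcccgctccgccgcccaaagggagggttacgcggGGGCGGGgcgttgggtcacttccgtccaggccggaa
Sdhd, chr8:59850642-59850791, minus strand: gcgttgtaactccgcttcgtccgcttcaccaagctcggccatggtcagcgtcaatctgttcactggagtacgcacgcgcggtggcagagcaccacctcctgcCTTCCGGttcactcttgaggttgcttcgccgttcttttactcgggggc
Sdha held 2 matches to NRF1 (GCGC, any base, then TGCGC, here as the reverse complement), Sdhb and Sdhd 1 match each to GABPA (CCGGAAG), and Sdhc 2 to SP1 (GGGCGGG). The 4 genes thus did not have a motif in common in these stretches. YY1 was searched as ATGGCGG, and all motifs were read on both strands.

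NRF1 and GABPA (also called NRF2) are transcription factors known to bind promoters of respiratory chain genes, and YY1 and SP1 bind many of them. In windows from 250 bases before to 50 after the RefSeq start, 71 of the 85 genes had a sequence. NRF1 matched in 21.1% of these, GABPA in 28.2%, YY1 in 19.7% and SP1 in 22.5%. Over all 27457 promoters of the same length the shares were 4.71%, 9.22%, 5.22% and 24.2%. Over the 8695 promoters of known genes tested here they were 10.7%, 18.6%, 10.4% and 47.1%, so the share in oxidative phosphorylation promoters was the higher one for NRF1, GABPA and YY1 and the lower one for SP1, as a description without a test. At least 1 of the 4 motifs was present in 69% of the 71 promoters, beside 64.8% of those of expressed genes. Matches of different motifs shared no base in any of the 71. A match is a run of letters and not a shown binding site.

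The messages of 3 of these factors were measured among the regulators of mitochondrial biogenesis. Nrf1 measured 8.9 and 11.2 FPKM in males and 8.2 and 9.7 in females. Gabpa measured 10.74 and 9.51 FPKM in males and 10.35 and 9.71 in females, and Yy1 21.05 and 22.04, then 23.19 and 23.54. None passed in limma, with adjusted p of 0.296, 0.522 and 0.821. Both BPA libraries were above both controls for Nrf1, as for 18.7% of all transcripts, and below both for Gabpa, as for 31.9%.

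Complex III, which transfers electrons from ubiquinol to cytochrome c, gave no gene past an absolute log2 ratio of 0.25 in males and 1 of 9 in females. Its redox subunits were Cyc1 (GeneID 300047), cytochrome c1, at 110.02 and 109.18 FPKM in males and 111.28 and 106.36 in females, and Uqcrfs1, the Rieske iron-sulfur protein, at 102.03 and 109.6 FPKM in males and 93.45 and 93.25 in females. The core proteins Uqcrc1 and Uqcrc2 had log2 ratios of 0.04 and -0.04 in males and 0.11 and -0.02 in females. The largest of these differences was the 7.84% by which Uqcrc1 was higher in BPA female. Uqcrb, a small subunit at the ubiquinone site, had ratios of 0.03 and -0.08.

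Uqcrq (GeneID 497902), a small membrane subunit, had the lowest female ratio of complex III, -0.29, and a male ratio of -0.06. In males Uqcr11 was lowest, at -0.13. It measured 35.98 and 34.39 FPKM in males and 37.53 and 30.58 in females, so only the BPA female library stood apart. Uqcr11 went the other way in females, with 83.79 FPKM in control and 97.98 in BPA, and 102.36 and 93.74 in males. Its ratio differed between the sexes by -0.35, which did not pass the test on counting error (adjusted p = 0.11). Summed over complex III, FPKM were 2.4% lower in BPA male and 0.052% lower in BPA female. Its medians, -0.037 and -0.016, turned to 0.001 and 0.027 with the median of all transcripts set to 0.

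Complex IV, cytochrome c oxidase, was the one complex whose median lay above 0 in males, at 0.050. Of its 12 tested genes, 3 (25%) were lower in males, against 56.1% of all transcripts. In females the median was -0.036 and 8 genes (66.7%) were lower, against 57.8%. The female median turned to 0.007 with the median of all transcripts set to 0. Cox4i1 (GeneID 29445), an early subunit in the assembly of the complex, measured 332.5 and 343.94 FPKM in males and 324.74 and 331.03 in females. Cox5a, which joins with Cox4i1, and Cox5b had male ratios of 0.05 and 0.15 and female ratios of -0.06 and -0.01. Cox6a1 was 9.62% higher in BPA male and 0.333% lower in BPA female. Cox7a2 and Cox8a measured 305.2 and 316.68, and 274.45 and 277 FPKM in males, and 270.41 and 279.75, and 287.07 and 264.99 FPKM in females. Among the subunits named so far the counting interval excluded 0 for Cox5b (0.01 to 0.29) and Cox6a1 (0.03 to 0.23), on the higher side and in males only.

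Lower values with BPA in both sexes were seen in 3 of the 12 tested genes of complex IV (25%), against 40.1% of all transcripts. Cox7a2l (GeneID 298762), a factor that joins complexes III and IV into supercomplexes, measured 136.5 and 124.38 FPKM in males and 132.78 and 113.85 in females. The counting intervals of its ratios excluded 0 in each sex (-0.25 to -0.02 and -0.34 to -0.10), and limma gave -0.18 (SE 0.0648, adjusted p = 0.247), or -0.11 without the BPA female library. Set beside Cox7a2, the related subunit, Cox7a2l was at 44.7% and 39.3% in males and at 49.1% and 40.7% in females. Cox6c measured 316.24 and 265.24 FPKM in males and 287.59 and 276.27 in females, and Cox7c 255.63 and 228.66, then 242.34 and 226.06. Their counting intervals excluded 0 on the lower side in males, at -0.38 to -0.13 for Cox6c and -0.29 to -0.03 for Cox7c, and held 0 in females. All 3 genes had both BPA libraries below both controls, the only ones of the 12 (25%), against 31.9% of all transcripts.

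Scarce isoforms of complex IV gave the most extreme ratios in the female pair and the highest in the male pair, and they rested on few fragments. Cox4i2 (GeneID 84683), the isoform known from lung and from low oxygen, had the highest ratio in males (0.31) and the lowest in females (-0.45). It measured 1.95 and 2.54 FPKM in males (12 and 16 estimated fragments) and 3.57 and 2.47 in females (22 and 15). Its counting intervals spanned -0.75 to 1.64 for males and -1.61 to 0.45 for females, and the sexes could not be told apart at this depth (adjusted p = 0.481, counting error). Beside Cox4i1 it stayed at 0.586% to 1.1%. Cox6b2, the testis isoform of subunit VIb, had the highest female ratio, 0.64, from 30 fragments in control female and 48 in BPA female, with an interval from -0.02 to 1.38.

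Complex V, the ATP synthase, had the lowest medians after complex II, at -0.061 in males and -0.091 in females. Of its 17 genes, 13 (76.5%) were lower with BPA in each sex, against 56.1% of all transcripts in males and 57.8% in females. The medians stayed below 0, at -0.024 and -0.048, with the median of all transcripts set to 0. Atp5b measured 684.56 and 641.44 FPKM in males and 656.72 and 632.48 in females. Because it rested on 9667 to 10758 fragments, the counting intervals of its small ratios excluded 0 in each sex (-0.13 to -0.05 and -0.09 to -0.01). Its limma log2 difference was -0.07 (SE 0.0609, adjusted p = 0.569), so the difference was near the spread between the 2 libraries of a treatment. Atp5a1 (GeneID 65262), its partner in the head, measured 397.49 and 385.46 FPKM in males and 380.52 and 383.45 in females. Atp5c1, the gamma subunit of the turning shaft, had ratios of -0.04 and 0.01.

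The stretch before the start of Atp5b is shown because it is the most abundant of the 85 genes, with 1 YY1 match in capitals. Another match, as the reverse complement, begins 17 bases after the start and so lies outside the stretch.
Atp5b, chr7:1099908-1100057, plus strand: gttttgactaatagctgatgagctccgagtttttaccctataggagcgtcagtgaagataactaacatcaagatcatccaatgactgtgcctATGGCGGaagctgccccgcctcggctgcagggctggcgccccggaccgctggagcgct

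In the peripheral stalk, which holds the head in place, all 4 genes were lower with BPA in each sex, as were 40.1% of all transcripts. Atp5j (GeneID 94271) measured 160.26 and 143.87 FPKM in males and 144.97 and 122.96 in females. Its counting intervals excluded 0 in each sex, at -0.30 to -0.01 and -0.39 to -0.08, and limma gave an adjusted p of 0.335. Atp5f1, Atp5h and Atp5o had ratios between -0.02 and -0.09. The -0.02 of Atp5f1 in males lay above the -0.038 median of all transcripts. Of the small membrane subunits, Atp5j2 (GeneID 690441) measured 252.47 and 208.3 FPKM in males and 239.69 and 222.09 in females. Both BPA libraries of Atp5j2 were below both controls, as for 7 of the 17 genes of complex V (41.2%), against 31.9% of all transcripts. Its limma log2 difference was -0.19 (SE 0.0626, adjusted p = 0.213).

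Subunit c, the protein of the rotating ring, is encoded by 3 genes whose products differ in the import sequence and give the same mature protein. Atp5g1 (GeneID 29754) measured 155.48 and 145.18 FPKM in males and 160.76 and 135.02 in females. Atp5g2 (GeneID 171082) measured 236.85 and 260.57 FPKM in males and 230.98 and 209.23 in females. Atp5g3 (GeneID 114630) measured 256.6 and 243.34 FPKM in males and 258.23 and 228.58 in females. Summed, the 3 genes gave 648.93 and 649.09 FPKM in males and 649.97 and 572.83 in females. Of these 4 sums 3 were alike, and the BPA female sum was the low one.

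In males the ratio of Atp5g2 lay above 0 and those of Atp5g1 and Atp5g3 below. Atp5g2 was 10% higher in BPA male and 9.42% lower in BPA female, with log2 ratios of 0.14 and -0.14, and its ratio differed between the sexes by 0.28 (normal approximation on counting error, adjusted p = 0.0034 over 12974 transcripts). It was the other of the 2 genes that passed that test. Atp5g1 and Atp5g3 were lower with BPA in each sex, by 6.62% and 5.17% in males and by 16% and 11.5% in females. Their counting intervals held 0 in males (-0.24 to 0.05 and -0.17 to 0.02) and excluded it in females, whereas that of Atp5g2 excluded 0 in each sex. Atp5g2 made up 36.5% and 40.1% of subunit c FPKM in males and 35.5% and 36.5% in females.

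**Figure D4:**
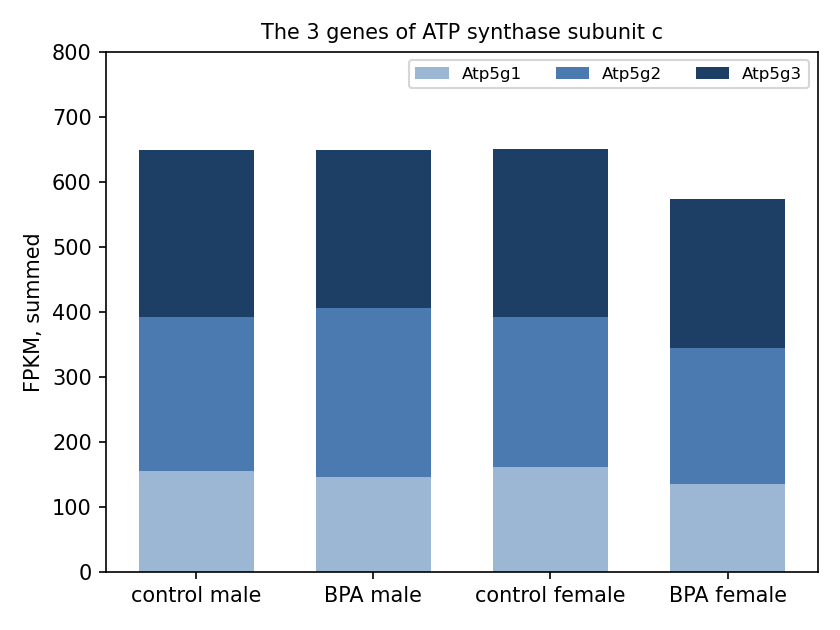
FPKM of Atp5g1, Atp5g2 and Atp5g3, stacked, in each library. The sum is between 648.93 and 649.97 in 3 libraries and 572.83 in BPA female, and the Atp5g2 band is widest in BPA male.

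The 6 assembly factors, which help to build complex I and leave it afterwards, were scarce, at 4.99 to 31.74 FPKM, and rested on 52 to 297 fragments. Their median was -0.052 in males and 0.090 in females. Ndufaf1 (GeneID 296086), needed for the membrane arm, measured 7.21 and 6.26 FPKM in males and 6.62 and 4.99 in females. Ndufaf6 was higher in both BPA libraries of their sex, at 8.41 and 9.41 in males and 5.89 and 7.68 in females, and Ndufaf3 at 16.03 and 16.45, then 12.82 and 15.78. The female ratios of these 3 genes, -0.38, 0.36 and 0.29, were past 0.25, and of them the counting interval of Ndufaf1 alone excluded 0.

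Over the 83 genes, male and female log2 ratios were weakly alike, with a Pearson r of 0.21 and a Spearman rho of 0.28 given as a description, beside a Pearson r of 0.27 over all transcripts. The 2 pairs share no library, but each gene brings its own depth and base composition to both. In both pairs 38 of the 83 genes (45.8%) were lower with BPA, against 40.1% of all transcripts.

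**Figure D5:**
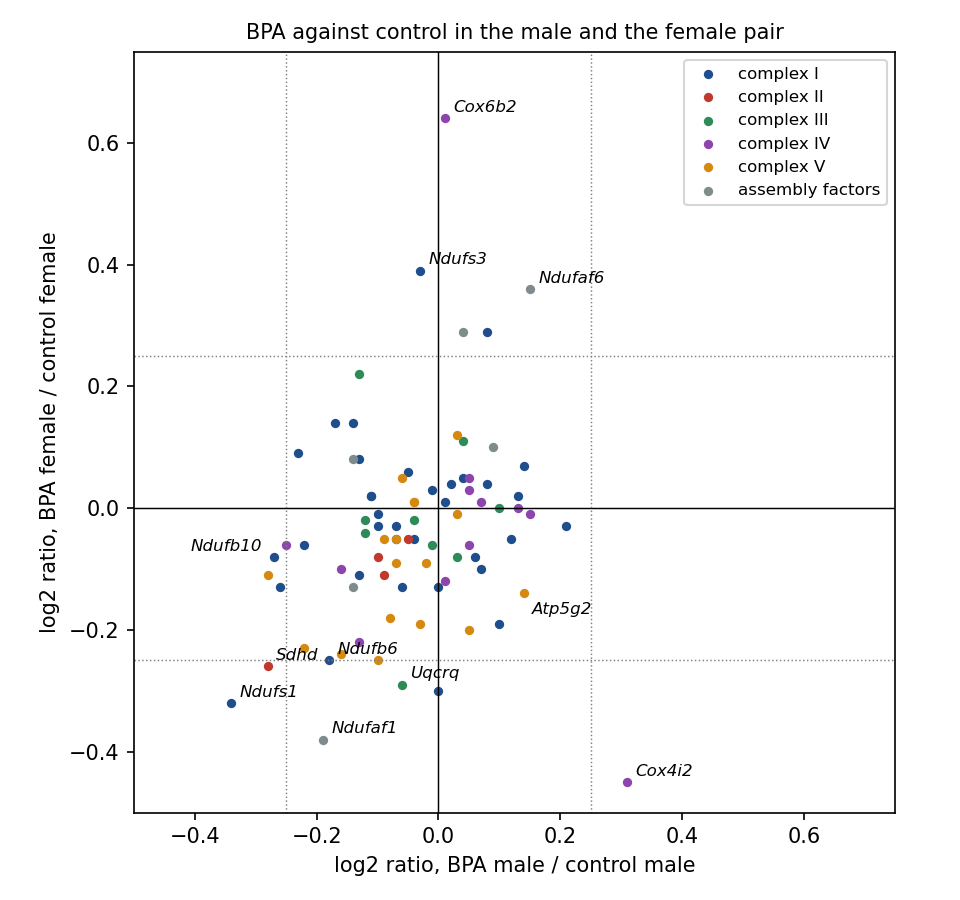
Log2 ratio of BPA to control in males (x) and females (y) for the 83 tested genes, coloured by complex; dotted lines mark 0.25. Ndufs1 and Sdhd are the genes past 0.25 in both pairs on the same side, and Cox4i2 and Cox6b2, with few fragments, have the most extreme female ratios.

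The comparison of libraries with the same treatment showed how far 2 libraries differed with the treatment held equal. The control female library was lower than the control male for 63 of the 83 genes (75.9%), against 49.6% of all transcripts, and BPA female was lower than BPA male for 63 (75.9%), against 52.8%. Medians were -0.071 and -0.068. A log2 difference of 0.25 or more was found for 9 genes (10.8%) between the controls and for 6 (7.23%) between the BPA libraries, against 22.7% and 25%. Between the treatments 7 and 13 genes had passed 0.25, so the counts for sex and for treatment overlapped. Known genes of at least 30 FPKM were also lower in females, with 63.5% in control and 55.8% in BPA, beside 55 (75.3%) and 56 (76.7%) of the 73 genes of that level. Among known genes of that level with transcripts of at most 1500 bases, 586 and 595 of 799 were lower in females, with medians of -0.064 and -0.083, and 47 and 46 of the 62 oxidative phosphorylation genes of that length were, with medians of -0.066 and -0.092. The downward difference in females was thus near that of other abundant genes with short transcripts.

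Other genes around the respiratory chain were taken from fixed lists, and none of them passed an adjusted p of 0.05 in limma. The counts at an unadjusted p under 0.05 stand beside 17.3% of all transcripts. Of 25 assembly factors outside the symbol rule, 4 (16%) had an unadjusted limma p under 0.05, and their medians were -0.053 in males and 0.012 in females. Tmem126b, an assembly factor of complex I, measured 20.28 and 14.78 FPKM in males and 21.51 and 16.45 in females (limma, adjusted p = 0.121). Cox17, which brings copper to complex IV, measured 26.66 and 17.13 FPKM in males and 20.23 and 17.47 in females. Both genes had both BPA libraries below both controls, as did 31.9% of all transcripts.

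The citric acid cycle supplies NADH and succinate, and its 12 genes had medians of -0.039 and -0.029, with 3 (25%) at an unadjusted p under 0.05. The 16 genes of glycolysis had -0.048 and -0.087, with 2 (12.5%), and the 9 genes of carriers, channels and uncoupling, a list that also holds the superoxide dismutase Sod2, -0.073 and -0.114, with 2 (22.2%), Sod2 and the uncoupling protein Ucp2. Cycs, cytochrome c itself, measured 147 and 115.84 FPKM in males and 124.11 and 122.5 in females, so control male stood apart from the rest. The 70 proteins of the mitochondrial ribosome, which makes the mitochondrially encoded subunits, had -0.045 and -0.103, with 13 (18.6%). In females the medians of glycolysis, the carrier list and the mitochondrial ribosome lay below the -0.045 of the oxidative phosphorylation genes and the -0.043 of all transcripts, differences that were not tested. The 77 tested proteins of the cytosolic ribosome had 0.122 and 0.046, with 6 (7.79%).

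Of 10 tested regulators of mitochondrial biogenesis, 3 (30%) had an unadjusted limma p under 0.05, beside the 17.3% of all transcripts, and the medians were 0.131 and 0.017. Ppargc1a (PGC-1 alpha), a coactivator that drives the programme, measured 4.77 and 3.21 FPKM in males and 5.45 and 3.69 in females (limma -0.51, SE 0.159, adjusted p = 0.204). Tfam, which packages and transcribes mitochondrial DNA, measured 20.27 and 26.97 FPKM in males and 22.87 and 24.6 in females, and Tfb2m, its partner at the promoter, 9.58 and 13.62, then 8.81 and 10.95. The 2 mitochondrial transcription factors were higher in both BPA libraries than in both controls, as were 18.7% of all transcripts. Ppargc1a was lower in both, as were 31.9%.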

How the data were processed

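Polyadenylated RNA of the prefrontal cortex (frontal cortex in the labels) was sequenced by the authors, 1 library per sex and treatment. According to their methods and the submitters' processing notes, the reads were mapped to the rat genome Rnor_6.0 (rn6), the tools named are Bowtie2, HISAT and RSEM, and versions are not given in the sources used here. The deposited values are FPKM per transcript, which the authors normalized for transcript length and library depth, with 2 decimals and 0.01 as the lowest value. Of 17419 rows, 14008 carried a numeric GeneID, and 0 sample columns were left unmapped.

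Oxidative phosphorylation genes and the lists of other genes were chosen with earlier results of these data known. A library's depth was taken as the fragment total at which scarce transcripts gave whole fragments, with 60 bases taken off each length. Of 1058 to 1114 scarce transcripts per library, 84.7% to 86.2% came within 0.1 of a whole number, and over 8 simulated libraries the largest error in depth was 0.0319%. Intervals from these fragments cover counting error only.

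Ratios are on the log2(FPKM + 0.5) scale, which understates differences of low genes. The fit across 13163 transcripts listed in all 4 libraries with a mean of at least 1 FPKM used limma 3.58.1 in R 4.3.3 with a trended prior, no term besides treatment, male and female as the 2 samples of a treatment, 2 residual degrees of freedom and Benjamini-Hochberg adjustment. Its p-values measure only the spread between these libraries, which includes sex. Tested on simulated data of 13134 transcripts, it called 197 of 200 transcripts changed 2-fold and 14 unchanged ones, and no smaller fold was simulated. Differences between the pairs were tested by a normal approximation with counting error.

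Genes were named by a rule: fixed subunits by role, the 5 highest and 5 lowest ratios per pair, limma calls and the 5 most abundant. Genes named outside it, such as Ndufb6, Cox6c and Atp5j, were chosen by their limma p, ratio or complex after their values were seen. Names were matched by GeneID for all 85 genes to a RefSeq table of GRCr8 holding 47357 genes, and 18 of the 85 have another current symbol there, such as Atp5f1b for Atp5b, and 1 of these, Ndufs6-ps1 for Ndufs6, names a pseudogene. The groups of genes of at least 30 FPKM and of at most 1500 bases were added after the data were seen. Promoter windows came from RefSeq on GRCr8, the first listed start of each gene. Alternatives were other pseudocounts, filters, scaling, sex as a block and leaving out each library. Python 3.11.15, numpy 2.4.6, pandas 2.3.3, scipy 1.17.1 and matplotlib 3.10.9 were used. Some items are not reported here.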

Additional observations from a re-analysis of the deposited data

Results flagged for a closer look

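The ratio of BPA to control differed between males and females for 2 of the 83 genes (2.41%) in the test on counting error, fewer than the 9.73% of all transcripts that passed it. For Ndufs3 the male minus the female log2 ratio was -0.42, from 51.88 and 50.72 FPKM in control and BPA males and 42.19 and 55.34 in control and BPA females. For Atp5g2 it was 0.28, from 236.85 and 260.57 FPKM in males and 230.98 and 209.23 in females. With 1 library per sex and treatment the difference could not be tested against variation between pups.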

How the results depend on the processing

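The number of oxidative phosphorylation genes past an adjusted p of 0.05 in limma was 0 in 10 of 12 alternatives, including every fit that left out 1 library (0 to 0), and 1, Ndufs1 in each case, with transcripts of at least 10 FPKM or known genes alone. The fits that left out 1 library called 0 to 6 of all 13163 transcripts, and those without a filter or without a trend 0, so a count of 0 there says little about these genes. Adjusted p of Ndufs1 ranged from 0.029 to 0.33. With sex as a block, which pairs the male and the female libraries, 0 genes passed and 14 (16.9%) had an unadjusted p under 0.05, against 19.6% of all transcripts in that fit. Over all 12 alternatives that number was 2 (2.41%, without a trend, against 15.6%) to 14. The 9 genes with an unadjusted limma p under 0.05 kept their direction in each of the 12, and no other gene was followed there. Leaving out BPA female took Cox7a2l from -0.18 to -0.11 and Ndufa1 from 0.19 to 0.10, and leaving out control male took Ndufb10 from -0.17 to -0.10. Of the genes past 0.25, 7 in males became 4 with a pseudocount of 5, 3 with median scaling, 0 at a log2 ratio of 1 and 16 where the counting interval had to exclude 0, and 13 in females became 6, 10, 0 and 20. Median scaling, which took the medians of all transcripts, -0.038 in males and -0.043 in females, to 0, turned the sign of 4 of 12 complex medians: complex I in females (0.013), complex III in males (0.001) and females (0.027) and complex IV in females (0.007). The medians over all 83 genes moved by less than a yardstick under each alternative. It was taken from the size of the female against male medians of the same genes, and is no spread between replicates. Over the 83 genes those medians were -0.071 and -0.068. Median scaling therefore counted as within the yardstick, though scaling took the treatment medians to -0.006 and -0.002. Of 62 complex medians recomputed, 57 moved by less than their own yardstick, and 5 moved further. For complex II they were -0.091 (males) and -0.093 (females) with a pseudocount of 5, and -0.058 and -0.056 with median scaling. The 3 assembly factors of at least 10 FPKM had 0.036 in males. Complex II had female against male medians of 0.004 and -0.008, so small moves passed its yardstick. With 1 library in each group, ratios under about 0.25 are near the difference between libraries of 1 treatment, and genes with few fragments, such as Cox4i2 and Cox6b2, cannot be placed.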
